A study of Mus musculus with 6 samples.

Results

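Collagens are the triple-helical proteins of the extracellular matrix, and the 44 genes described here are every curated protein-coding gene of the mouse RefSeq annotation (GRCm38.p6, the assembly that mm10 names) whose symbol consists of Col, digits, a and digits, out of 21000 curated protein-coding genes in all. They were divided into 11 fibrillar collagen genes, 6 genes of the type IV collagen of basement membranes and 27 other collagen genes. The fibrillar collagens, led by types I and III, assemble into the banded fibrils of connective tissue and are made mainly by fibroblasts and other mesenchymal cells. Type IV collagen forms the network under epithelia and endothelia, and its genes lie in head-to-head pairs that share a promoter segment. The other collagens decorate fibrils, form beaded filaments, anchor the epidermis, build short-chain networks or span the cell membrane. Many collagen genes are long and carry regulatory elements in their introns.

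The study asked how curcuphenol, a natural compound, and the cytokine IFN-γ alter the chromatin of A9 cells, a metastatic line derived from the TC1 line of transformed mouse lung cells. The cells were cultured for 48 h with 1% DMSO as vehicle, with curcuphenol (0.00167 μmol) or with IFN-γ, and 130000 live cells were taken for each treatment. ChIPseq was performed for H3K27ac, a histone acetylation that marks active promoters and enhancers. For each treatment 1 library was made from the antibody-captured DNA and 1 from the input DNA. The values are the positions of the regions called by the authors, 47899 with DMSO, 48763 under curcuphenol and 55622 under IFN-γ, covering 69.8, 70.3 and 81.1 Mb. Peak heights, read counts and depth are not part of these lists, so a level of acetylation cannot be read from them. With 1 library per treatment there was no replicate check, no test between treatments was possible and no p-value is given. A shorter or missing region may reflect less acetylation, fewer cells with the mark, or a difference between libraries in depth, capture or region calling. These cannot be told apart here.

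The covered length of a gene is the number of base pairs of its body and the 1 kb upstream of it that lie inside regions. Promoter regions were found at more of the mesenchymal markers than of the other marker lists. A promoter region was found at 6 of 10 mesenchymal markers with DMSO, 6 under curcuphenol and 7 under IFN-γ. It was found at 1, 0 and 1 of 6 epithelial markers (Krt8) and 0 of 4 lung alveolar, 0 of 5 leukocyte and 0 of 4 endothelial markers in each list. Over all protein-coding genes the shares were 50.1%, 49.0% and 51.1%, so the mesenchymal counts lie near the share of all genes. The mesenchymal markers Lum and Postn held no region in any list. Acta2 had a promoter region with IFN-γ only and Thy1 had none in any list. The identity of the cells was not tested. No lung alveolar marker held any region over its body, while the epithelial marker Cdh1 and the endothelial markers Pecam1, Cdh5 and Tek held regions over their bodies in all 3 lists. Both treatments were set against the same DMSO list, so their comparisons share that library.

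H3K27ac was found at the promoters of a minority of the collagen genes. A promoter was taken as the 1000 bp before to 100 bp after a transcription start site (TSS). A promoter region was found at 11 of 44 collagen genes with DMSO (25.0%), while 50.1% of all protein-coding genes had one. It was found at 9 with curcuphenol (20.5%), with 49.0% of all genes, and at 11 with IFN-γ (25.0%), with 51.1% of all genes. Any region over the body or the 1 kb upstream was found at 29 collagen genes with DMSO (65.9%; 58.6% of all genes), at 28 with curcuphenol (63.6%; 60.4% of all genes) and at 30 with IFN-γ (68.2%; 60.2% of all genes). The collagen genes are long, with a median of 114 kb against 16.7 kb for all genes, and the 1000 bp around their start sites had a median ratio of observed to expected CpG of 0.454 against 0.594. The part of length and CpG content in these shares was not tested.

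In all 3 lists, 8 collagen genes had a promoter region, namely Col3a1, Col5a1, Col4a1, Col4a2, Col4a5, Col7a1, Col8a1 and Col16a1. The share of all genes with a promoter region in all 3 lists was not computed. Col12a1 and Col6a1 had one with DMSO and IFN-γ, Col18a1 with curcuphenol and IFN-γ, and Col1a2 with DMSO alone. Some of these calls rest on the edge of the window. The DMSO region of Col1a2 began 84 bp past the TSS and those of curcuphenol and IFN-γ 241 and 222 bp past it. Col18a1 had its nearest region 239 bp from the TSS with DMSO, 23 bp under curcuphenol and 45 bp under IFN-γ. Col1a1, whose nearest region lay 228 bp from the TSS with DMSO and 221 bp with IFN-γ, fell outside the window, as did the first region of Col5a2, 305 bp away with DMSO. With the window set to 500 bp before and after the TSS, 14, 10 and 13 collagen genes had a region with DMSO, curcuphenol and IFN-γ. The shares of all genes with that window were not computed.

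The promoters of 5 genes are shown because they cover the patterns above: Col1a2 and Col18a1, whose calls turned on the window, Col6a1, whose region was missing with curcuphenol, Col3a1, whose region was shorter with both treatments, and Col5a1, whose region stayed broad. Each is the 250 bases before the TSS in the direction of the gene (RefSeq, GRCm38), and capitals mark 3 kinds of motif on either strand. The GC box, a site of Sp1 and related factors, is read as GGGCGG. The CCAAT box, bound by NF-Y, is spelled by its name. The TATA box, near which transcription starts at some genes, is searched as TATAAA.
Col1a2 (chr6:4505368-4505617, plus strand): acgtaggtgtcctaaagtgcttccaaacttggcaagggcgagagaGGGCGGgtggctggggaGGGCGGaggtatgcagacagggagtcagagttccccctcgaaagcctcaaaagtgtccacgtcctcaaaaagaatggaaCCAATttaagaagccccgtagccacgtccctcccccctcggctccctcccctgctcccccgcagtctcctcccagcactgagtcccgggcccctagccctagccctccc
Col3a1 (chr1:45311288-45311537, plus strand): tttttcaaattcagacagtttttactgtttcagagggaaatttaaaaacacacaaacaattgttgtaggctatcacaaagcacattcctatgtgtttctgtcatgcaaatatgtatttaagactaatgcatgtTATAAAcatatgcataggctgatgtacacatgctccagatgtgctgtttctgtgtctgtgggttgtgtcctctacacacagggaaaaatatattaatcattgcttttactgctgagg
Col5a1 (chr2:27886175-27886424, plus strand): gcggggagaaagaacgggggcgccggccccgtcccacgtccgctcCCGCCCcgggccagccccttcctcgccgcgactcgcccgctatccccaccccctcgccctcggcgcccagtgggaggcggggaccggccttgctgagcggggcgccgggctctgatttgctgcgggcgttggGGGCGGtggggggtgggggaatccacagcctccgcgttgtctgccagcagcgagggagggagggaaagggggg
Col6a1 (chr10:76726045-76726294, minus strand): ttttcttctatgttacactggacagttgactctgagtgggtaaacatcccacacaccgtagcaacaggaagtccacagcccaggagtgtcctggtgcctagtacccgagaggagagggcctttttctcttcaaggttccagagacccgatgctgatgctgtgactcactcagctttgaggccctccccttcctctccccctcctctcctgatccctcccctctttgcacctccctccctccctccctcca
Col18a1 (chr10:77166531-77166780, minus strand): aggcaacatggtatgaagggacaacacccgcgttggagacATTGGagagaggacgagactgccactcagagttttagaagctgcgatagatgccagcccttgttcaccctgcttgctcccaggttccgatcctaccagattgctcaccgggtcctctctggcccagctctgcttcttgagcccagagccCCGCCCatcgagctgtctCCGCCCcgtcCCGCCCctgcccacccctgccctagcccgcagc

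The promoter of Col5a1 held 2 GC boxes and a GC content of 76.4%, and that of Col18a1 held 3 GC boxes and a CCAAT box at 62.0% GC. Col1a2 held 2 GC boxes and a CCAAT box, also at 62.0% GC. Col3a1 held a TATA box and no GC box at 35.2% GC, and Col6a1 held none of the 3 motifs at 56.0% GC. Promoter sequences (300 bases, 250 before to 50 after the TSS) matched 35 of the 44 genes, with 38 promoters. A GC box was found in 23 of 38 (60.5%), against 35.7% of the 32851 promoters of all genes in the table, a CCAAT box in 13 of 38 (34.2%; 37.4% of all), and a TATA box in 5 of 38 (13.2%; 13.6% of all). The median GC content of these promoters was 59.8% for the collagen genes and 52.7% for the full set, and a GC box becomes more likely with GC content. The motifs do not overlap each other in letters, and a match is only a description of the sequence. Col12a1, Col14a1, Col1a1, Col22a1, Col26a1, Col2a1, Col4a3, Col5a2 and Col9a3 had no promoter in this set.

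Among the fibrillar collagens, covered length was at least 1.5-fold smaller with both treatments over Col1a1, Col3a1, Col5a2 and Col24a1. It was smaller by that much with curcuphenol alone over Col1a2. Only Col27a1 with curcuphenol and Col2a1 with IFN-γ, both without a DMSO region, counted as at least 1.5-fold larger. Over Col5a1 covered length was 1.47 times DMSO with IFN-γ, just under that limit. Col3a1 (chr1:45311538-45349706, plus strand, mm10), which encodes the chain of type III collagen, had 12154 bp covered with DMSO, 2484 bp under curcuphenol and 2661 bp under IFN-γ. Its covered length was thus 0.204 times that of DMSO with curcuphenol and 0.219 times with IFN-γ. The region at its promoter was 7276 bp wide with DMSO, 468 bp under curcuphenol and 707 bp under IFN-γ. Within the span of that DMSO region, curcuphenol regions covered 1956 bp and IFN-γ regions 2217 bp, so that several short regions stood in place of the broad DMSO domain. A further 5 DMSO regions in the gene, 245 to 2230 bp wide and centred 9.25 to 30.3 kb past the TSS, had no region in either other list, and the 500 bp around their centres had 31.2 to 36.8% GC.

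The widest of these DMSO regions lies in an intron, and the 300 bases at its centre are shown as an example of the AT-rich sequence concerned. Capitals mark an AP-1 motif (TGANTCA, where N is any base), the site bound by Fos and Jun factors.
Col3a1 intron, GRCm38 (chr1:45320634-45320933, plus strand): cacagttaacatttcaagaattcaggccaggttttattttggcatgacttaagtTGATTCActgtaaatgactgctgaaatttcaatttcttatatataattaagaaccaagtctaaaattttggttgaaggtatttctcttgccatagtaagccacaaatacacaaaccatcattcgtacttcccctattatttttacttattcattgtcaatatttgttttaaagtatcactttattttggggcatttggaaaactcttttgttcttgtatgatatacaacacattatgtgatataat

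The GC content of these 300 bases was 29.3%. Over all collagen genes, 43 of 135 DMSO regions held an AP-1 motif in the 300 bp at their centre (31.9%), against 16.7% of the 30373 DMSO regions over all coding genes. Over the fibrillar collagens it was 12 of 29 (41.4%). Of the collagen regions without an IFN-γ region 10 of 39 held it (25.6%), and of those with one 33 of 96 (34.4%). Over all coding genes these shares were 14.48% and 17.05%. A GAS motif (TTCNNNGAA), searched in the same way, was held by 10 of 135 collagen regions (7.41%), against 9.08% over all coding genes. The 300 bp at the centre of DMSO regions had a median GC content of 45.3% over collagen genes and 48% over all coding genes. The part of GC content and of position in the gene in these shares was not tested. Both motifs read the same on either strand, and regions of the same gene are not independent of each other.

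Col5a2 (chr1:45374331-45503282, minus strand), a chain of type V collagen that regulates fibril diameter, lies next to Col3a1 on chromosome 1, tail to tail, with 24624 bp between the genes. It had 4764 bp covered in 5 regions with DMSO and none with curcuphenol or IFN-γ. These regions were 316 to 1568 bp wide and were centred 1.09 to 82.8 kb past its TSS. Over both genes and 30 kb on either side, 18 regions covered 26206 bp with DMSO, 6 covered 7103 bp with curcuphenol and 7 covered 7394 bp with IFN-γ. The stretch between the genes differed less: 5568 bp with DMSO, 3611 bp under curcuphenol and 3520 bp under IFN-γ. The remaining regions with curcuphenol and IFN-γ thus lay at the start of Col3a1, between the genes and upstream of Col5a2.

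**Figure D1:**
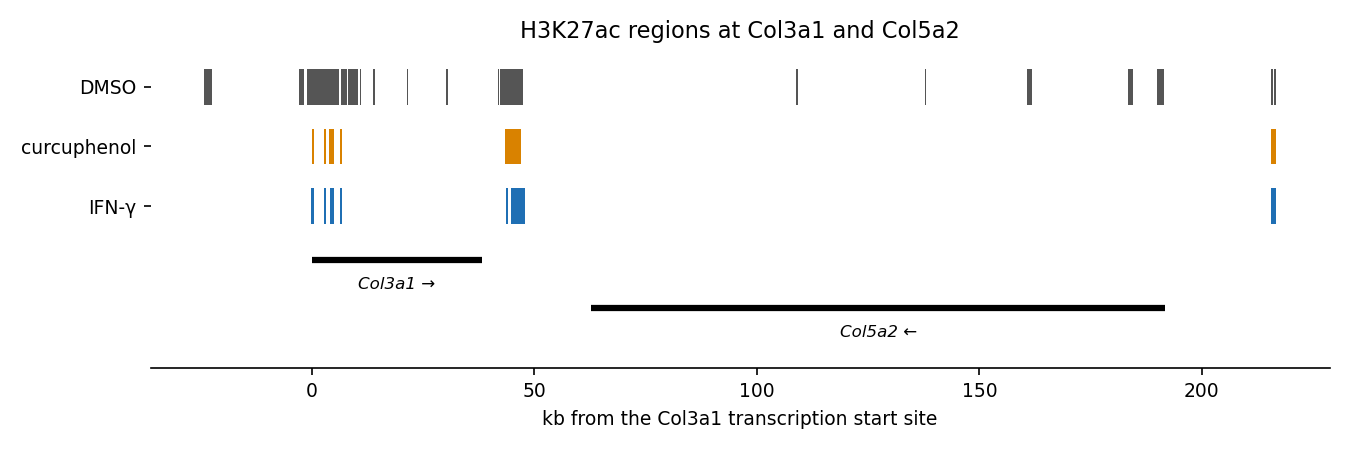
Bars are the H3K27ac regions of each treatment (1 library each), drawn by distance in kb from the Col3a1 TSS, with the genes as black lines and arrows for their direction. The 18 DMSO regions reach over both genes, while the 6 curcuphenol and 7 IFN-γ regions leave the body of Col5a2 without a region.

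The type I collagen genes Col1a1 (chr11:94936224-94953042) and Col1a2 (chr6:4505618-4541543), whose products combine in the main fibril of skin and bone, each had 1 merged region at the start of the gene. Col1a2 had 3032 bp covered with DMSO, 1588 bp under curcuphenol and 2589 bp under IFN-γ. Col1a1 had 1326 bp with DMSO, none under curcuphenol and 721 bp under IFN-γ. For both genes the order was DMSO, IFN-γ, curcuphenol. Col24a1, a fibrillar collagen of developing bone, had 13475 bp with DMSO, 5574 bp under curcuphenol and 7762 bp under IFN-γ, the longest covered length of the fibrillar genes with DMSO. Of its 12 merged regions 3 were called with DMSO alone, 3 with IFN-γ alone and 1 with curcuphenol alone.

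Col5a1 (chr2:27886425-28039510), the partner chain of Col5a2 in type V collagen, went the other way. It had 10603 bp covered with DMSO, 10944 bp under curcuphenol and 15560 bp under IFN-γ, and its ratio to DMSO was 1.03 with curcuphenol and 1.47 with IFN-γ. Its promoter region was 5176, 4735 and 5677 bp wide with DMSO, curcuphenol and IFN-γ. Of its 13 merged regions, 4 were called with IFN-γ alone, all between 18.9 and 44.7 kb past the TSS and 325 to 511 bp wide. These chains of type V collagen therefore differed from DMSO in opposite directions under IFN-γ, Col5a1 by 4957 bp more and Col5a2 by 4764 bp fewer. The remaining fibrillar genes held little or nothing. Col27a1 had 447 bp with curcuphenol and none with DMSO or IFN-γ, and Col2a1, the collagen of cartilage, had 364 bp with IFN-γ only. Col5a3, Col11a1 and Col11a2 had no region in any list.

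The longest covered length of all collagen genes was that of Col4a2 (chr8:11312805-11449287, plus strand), which faces Col4a1 (chr8:11198423-11312826, minus strand). Col4a2 had 40062 bp with DMSO, 25142 bp under curcuphenol and 36264 bp under IFN-γ, and Col4a1 had 20322, 17487 and 22480 bp. Relative to DMSO, Col4a2 was at 0.628 with curcuphenol and 0.905 with IFN-γ, and Col4a1 at 0.860 and 1.11. The start sites of this head-to-head pair lie 21 bp apart, so that a region covering both was counted for both genes. It was 8724 bp wide with DMSO and 9151 bp with IFN-γ. With curcuphenol the region at the start sites was 2786 bp wide, and all curcuphenol regions within the same span covered 5236 bp. Over the pair and 10 kb on either side there were 26, 25 and 26 regions covering 60037, 41948 and 58757 bp. The number of regions thus differed by 1, and covered length was shortest with curcuphenol. Of the 30 merged regions over the pair, 14 were called in all 3 lists, 4 with DMSO and IFN-γ, 6 with curcuphenol alone, 3 with DMSO alone and 3 with IFN-γ alone.

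**Figure D2:**
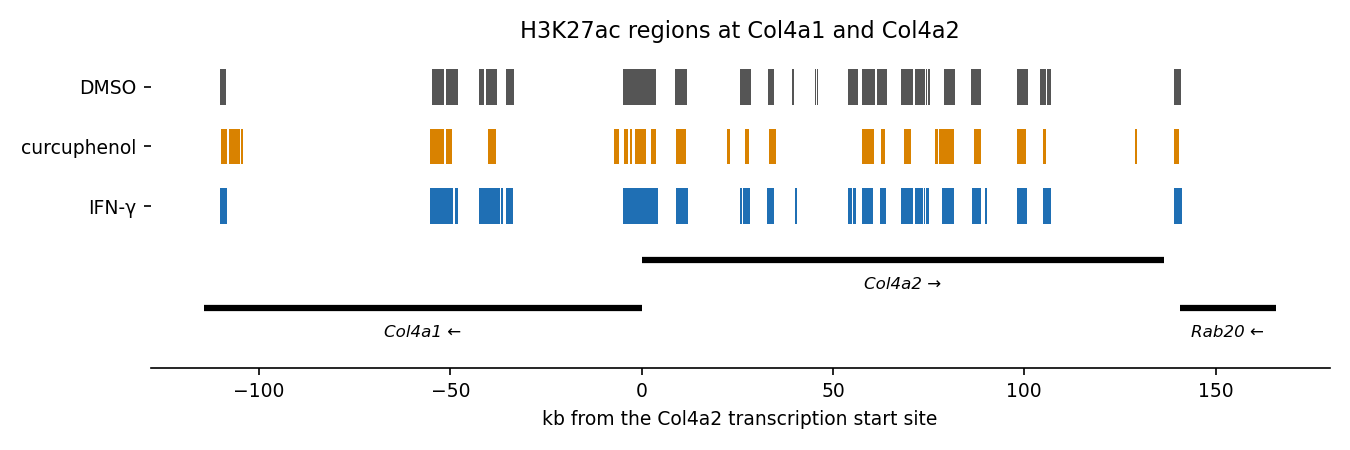
Bars are the H3K27ac regions of each treatment (1 library each), drawn by distance in kb from the Col4a2 TSS, with the genes as black lines. The 26 DMSO, 25 curcuphenol and 26 IFN-γ regions are shown, of which those of 14 of the 30 merged regions over the genes overlap in all 3 lists, and the region over both start sites is a run of separate shorter regions with curcuphenol.

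Within Col4a2, 3 merged regions were called with DMSO and IFN-γ but not curcuphenol, all intronic and centred 55.2 to 74.8 kb past the TSS. The other pairs held less. Col4a5 had 5002 bp with DMSO, 2764 bp under curcuphenol and 1937 bp under IFN-γ, with a promoter region of 2066, 1200 and 1250 bp. Col4a6, whose start lies 1343 bp from that of Col4a5, had 6011, 5443 and 2534 bp, with no region in its promoter window and the nearest 1021, 1019 and 1013 bp from its TSS. With IFN-γ these genes were at 0.387 and 0.422 times DMSO, and Col4a5 was at 0.553 with curcuphenol. Col4a3 had 4338, 3544 and 3443 bp. Col4a4, with its start 72 bp from that of Col4a3, had no region in any list. The Col4a3 and Col4a4 chains belong to the glomerular basement membrane of the kidney.

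Among the other collagens, Col8a1, of the short-chain network under vessel and corneal endothelium, had the longest covered length, 20678 bp with DMSO, 13290 bp under curcuphenol and 21735 bp under IFN-γ. Its promoter region was 8863, 2805 and 9316 bp wide. All curcuphenol regions within the merged region at that promoter covered 6011 bp. Col8a2, its partner, had 686, 340 and 347 bp. Col28a1 had 9595 bp with DMSO, 1905 bp under curcuphenol and 5817 bp under IFN-γ, at 0.199 and 0.606 times DMSO. Col7a1, the anchoring fibril under the epidermis, differed least among the genes with a promoter region in all lists, with 6449, 6210 and 6043 bp. Its promoter region was 3742, 3059 and 3038 bp wide, in part upstream of the gene window.

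Of the fibril-associated collagens, Col12a1 had 6536 bp with DMSO, 2441 bp under curcuphenol and 5116 bp under IFN-γ, and its nearest region lay 151 bp, 1220 bp and 0 bp from the TSS. Col16a1 had 5770, 4281 and 6100 bp, and its promoter region was 7539, 994 and 6791 bp wide, part of it upstream of the gene window. All curcuphenol regions within the span of that DMSO region covered 3844 bp. Col14a1 was longer with curcuphenol, with 1998 bp with DMSO, 5413 bp under curcuphenol and 2943 bp under IFN-γ, or 2.71 times DMSO with curcuphenol. Col19a1 had 769, 2554 and 545 bp, with 3 of its 4 merged regions called with curcuphenol alone, and Col22a1 had 4731, 2625 and 4691 bp. Col9a3 had 491 bp with IFN-γ only. Col9a1, Col9a2 and Col20a1 had no region.

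The type VI genes encode the beaded filaments around cells. Col6a1 had its only region at the promoter, 1296 bp with DMSO and 1189 bp with IFN-γ, and none with curcuphenol, where the nearest region was 3578 bp away. Col6a3, Col6a4 and Col6a5 had more covered length with curcuphenol. Col6a3 had 4049 bp with DMSO, 6013 bp under curcuphenol and 3715 bp under IFN-γ. Col6a4 had 4198, 6196 and 4285 bp, and Col6a5 had 1231, 3233 and 533 bp. Their ratios to DMSO with curcuphenol were 1.49, 1.48 and 2.63, so that Col6a3 and Col6a4 lie just under the limit of 1.5 used below. Col6a6 had 984 bp with curcuphenol and none otherwise, and Col6a2 had no region. The 6 genes together had 10774 bp with DMSO, 16426 bp under curcuphenol and 9722 bp under IFN-γ, the only subclass of more than 1 gene whose sum was longer with curcuphenol than with DMSO.

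The multiplexins Col15a1 and Col18a1, proteoglycan-like collagens of basement membranes, were longer with IFN-γ and shorter with curcuphenol. Col15a1 had 5655 bp with DMSO, 4656 bp under curcuphenol and 7577 bp under IFN-γ, and Col18a1 had 4735, 3473 and 7871 bp. Col18a1 was at 1.66 times DMSO with IFN-γ, with 4 merged regions called with IFN-γ alone, 691 to 1014 bp wide and 30.3 to 58.6 kb past the TSS. Of the transmembrane collagens, Col25a1 had 3765, 299 and 3028 bp and Col17a1 had 682, 435 and 872 bp. Col23a1 had 68, 3188 and 33 bp. The 68 and 33 bp belong to a region at the promoter of the neighbouring gene Phykpl that reaches the end of Col23a1, and its 4 regions of curcuphenol alone were 312 to 1447 bp wide. Col13a1, Col10a1 and Col26a1 had no region, which brings the genes without any region to 11 of 44.

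**Figure D3:**
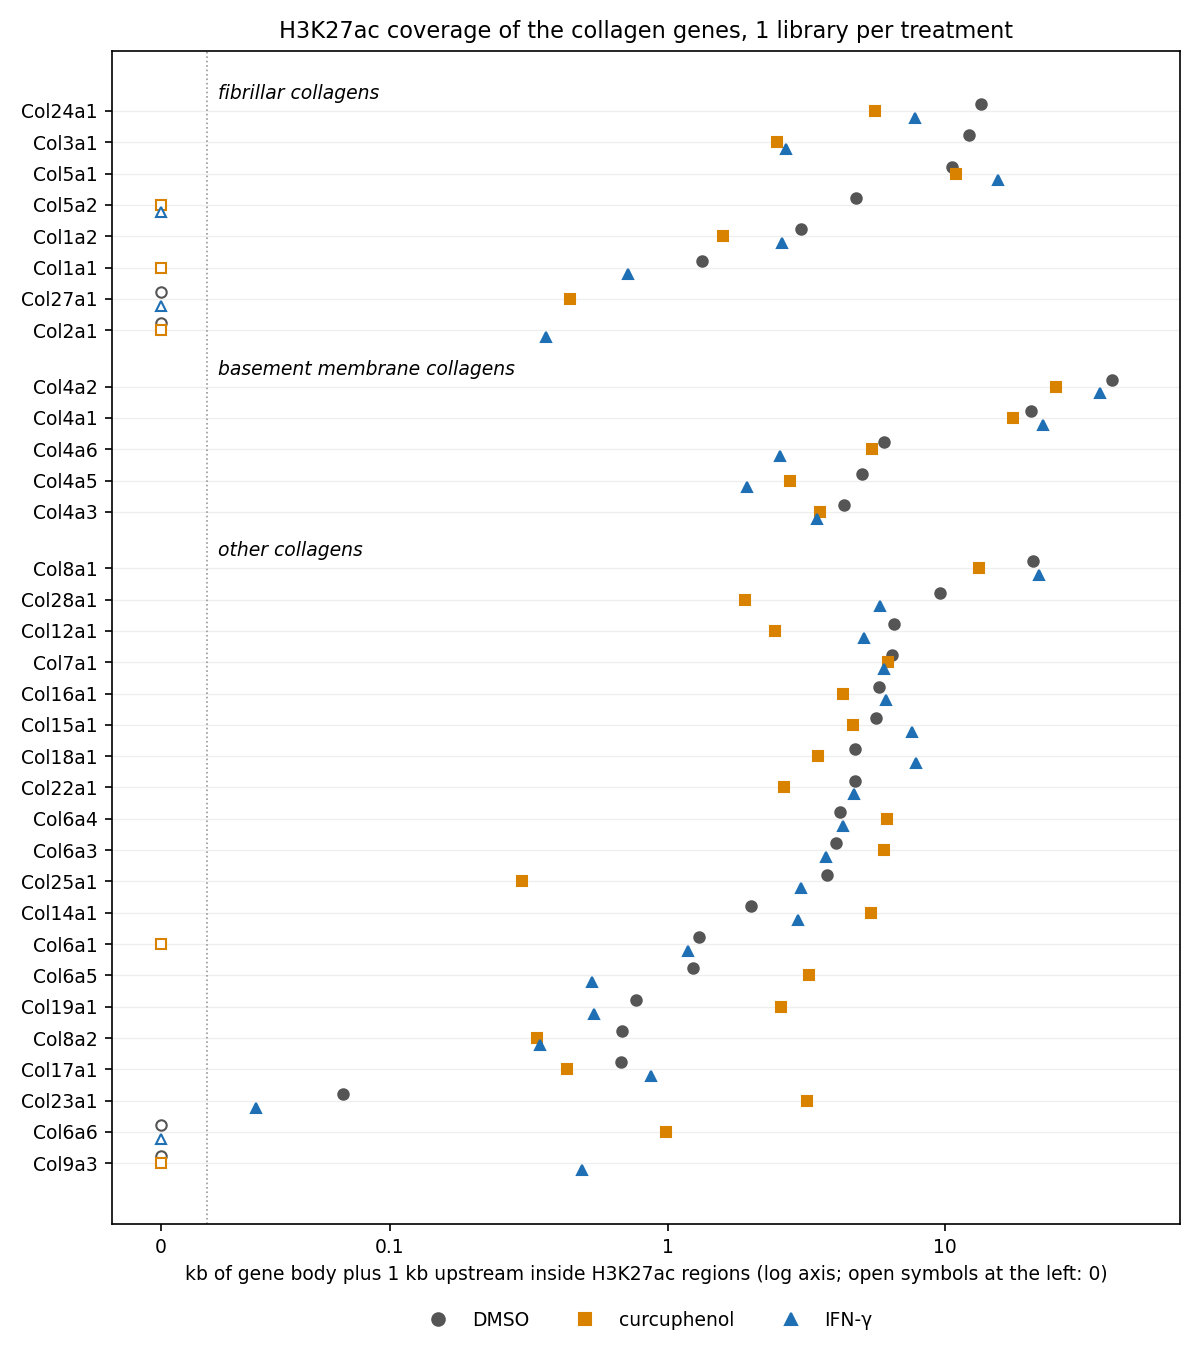
Covered length of the 33 collagen genes with a region in any list, in kb on a log axis, by class and in order of the value with DMSO, with 1 library per treatment (circles DMSO, squares curcuphenol, triangles IFN-γ, open symbols at the left for 0). Most squares lie to the left of the circles, as at Col3a1 (12154 bp with DMSO, 2484 bp with curcuphenol), while Col14a1 and Col6a5 show the opposite.

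Shorter covered length was more frequent among collagen genes than among all genes, with either treatment, as a description without a test. With curcuphenol, 15 of the 31 collagen genes with a region in that list or the DMSO list had at least 1.5-fold fewer covered bp than with DMSO (48.4%), while 20.8% of all such genes did. At least 1.5-fold more was found for 6 of 31 (19.4%), with 21.9% of all genes. With IFN-γ, 10 of 31 had at least 1.5-fold fewer (32.3%), with 8.91% of all genes, and 3 of 31 had at least 1.5-fold more (9.68%), with 21.2% of all genes. The median ratio to DMSO over the 29 collagen genes with a DMSO region was 0.643 with curcuphenol and 0.854 with IFN-γ, and 0.939 and 1.08 over all 12308 genes with one. Of 31 collagen genes, 22 were shorter by any amount under curcuphenol (71.0%; 52.7% of all genes) and 20 under IFN-γ (64.5%; 36.0% of all genes).

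The same counts were made for long genes. Among genes with a window at least as long as that of the median collagen gene, a comparison added after the data were seen, 23.2% had at least 1.5-fold fewer bp with curcuphenol and 16.2% with IFN-γ, and 32.7% and 22.9% had more. Limited further to genes at or below the median GC content of the collagen genes, 23.8% and 17.5% had fewer. Of the collagen genes of that length, 9 of 18 compared had fewer with curcuphenol (50%) and 6 of 16 with IFN-γ (37.5%). At least 1.5-fold more was found for 5 of these 18 (27.8%) and 0 of these 16. The part of length and GC content in the collagen counts was not tested. The IFN-γ list covers more of the genome than the DMSO list, and dividing each covered length by its list total moved the split over all genes from 21.2% more and 8.91% fewer to 14.3% more and 14.5% fewer, while the collagen genes went from 3 more and 10 fewer to 2 more and 11 fewer. Of the mesenchymal markers, 4 of 8 compared had at least 1.5-fold fewer bp and 1 more with curcuphenol, and 1 fewer and 2 more with IFN-γ. Their median covered length was 4010.5 bp with DMSO, 1753.5 bp under curcuphenol and 3018 bp under IFN-γ. Their part in the collagen counts was not tested. Without Col3a1 and Col5a2, also added later, 13 of 29 were shorter with curcuphenol and 8 of 29 with IFN-γ. At a fold of 2 the counts of shorter genes were 9 and 6 of 31 (11.2% and 4.35% of all genes).

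**Figure D4:**
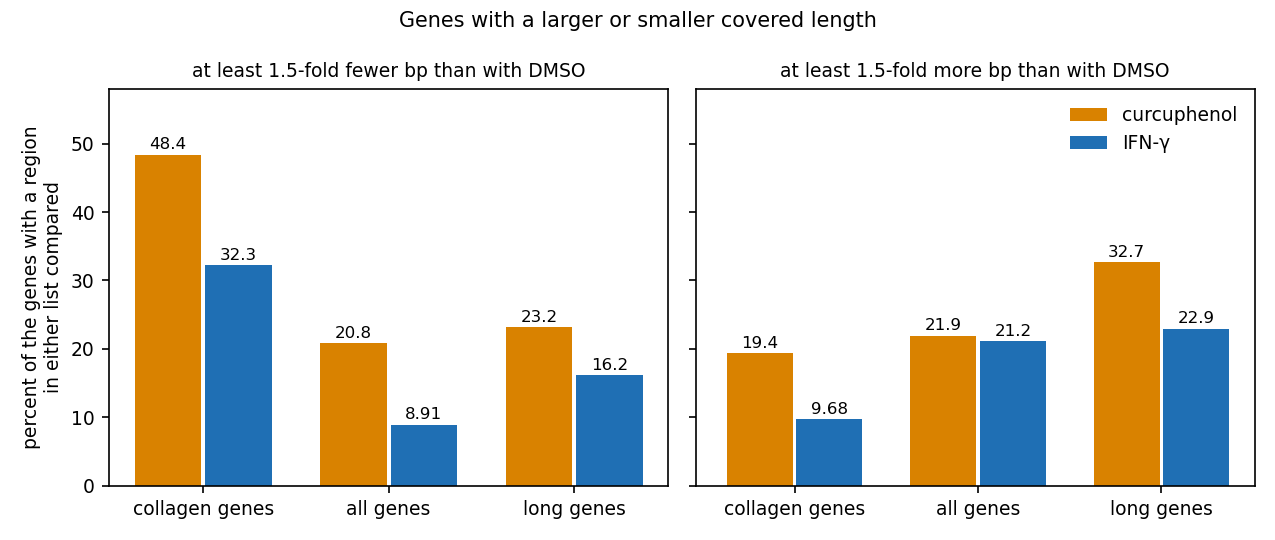
Percent of genes with at least 1.5-fold fewer (left) or more (right) covered bp than with DMSO, for the collagen genes, all protein-coding genes and long genes, with 1 library per treatment and bars starting at 0. Among collagen genes 48.4% had fewer bp with curcuphenol and 32.3% with IFN-γ, against 20.8% and 8.91% of all genes.

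The 3 classes differed in how covered length moved. The fibrillar genes together had 45354 bp with DMSO, 21037 bp under curcuphenol and 29657 bp under IFN-γ, or 0.464 and 0.654 times DMSO. The basement membrane genes had 75735, 54380 and 66658 bp, or 0.718 and 0.880 times, and the other collagens 82891, 67536 and 82931 bp, or 0.815 and 1.00 times. Counting bases shared by Col4a1 and Col4a2 once, all collagen genes had 202 kb with DMSO, 141 kb with curcuphenol and 177 kb with IFN-γ. The fibrillar difference rested on few genes, since Col3a1, Col5a2 and Col24a1 held 30393 of the 45354 bp with DMSO and 10423 of the 29657 bp with IFN-γ. The other 8 fibrillar genes, a division made after the values were seen, held 14961 bp with DMSO, 12979 bp with curcuphenol and, in the opposite direction, 19234 bp with IFN-γ.

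The counts by class did not follow the order of the sums throughout. With curcuphenol, 5 of 7 fibrillar genes compared, 2 of 5 basement membrane genes and 8 of 19 other genes had at least 1.5-fold fewer bp, and 1, 0 and 5 had more. With IFN-γ, 4 of 7, 2 of 5 and 4 of 19 had fewer, and 1, 0 and 2 had more. The median covered length of all genes of a class was 1326, 0 and 364 bp for the fibrillar genes with DMSO, curcuphenol and IFN-γ, 5506.5, 4493.5 and 2988.5 bp for the basement membrane genes, and 1231, 1905 and 872 bp for the others. These medians include the genes at 0, and the range of single genes within each class is far wider than the differences between them. Whether the classes differ was not tested.

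Overlapping regions of the 3 lists were merged, which gave 184 merged regions over collagen genes. Most lay in introns: the centres of 168 were intronic, 11 in a coding exon, 2 in an untranslated exon, 2 in a promoter window and 1 past the end of Col23a1. In all 3 lists, 64 of 184 were called (34.8%, exact 95% interval 27.9 to 42.1), against 44.7% of the 42423 merged regions over all coding genes. With DMSO alone, 36 were called (19.6%, 14.1 to 26.0), against 8.60%, with curcuphenol alone 31 (16.8%), against 15.6%, and with IFN-γ alone 22 (12%), against 15.3%. These intervals are Clopper-Pearson, cover counting error only and treat regions of the same gene as independent, which they are not. The largest share of regions of DMSO alone was that of the fibrillar genes, 14 of 41 (34.1%, 20.1 to 50.6), of which 10 lay in Col3a1 and Col5a2, and it was 9 of 51 (17.6%) for the basement membrane and 13 of 92 (14.1%) for the other genes.

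**Figure D5:**
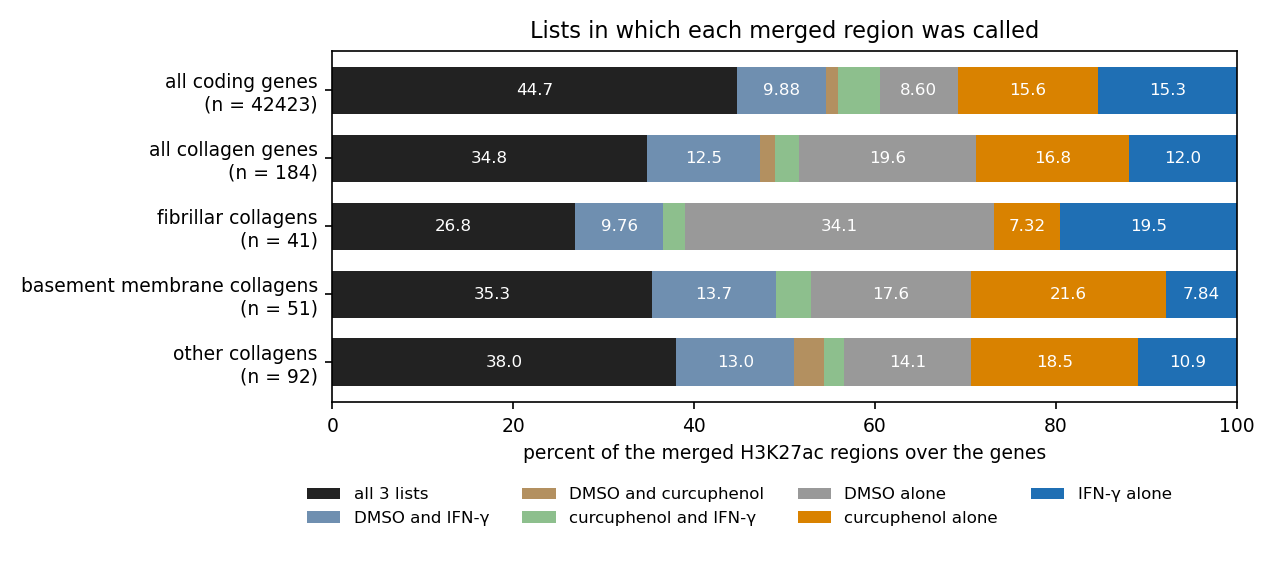
Percent of merged H3K27ac regions called in each combination of the 3 lists, for all coding genes (n = 42423), all collagen genes (n = 184) and the 3 classes, with 1 library per treatment. DMSO alone takes 34.1% of the fibrillar and 19.6% of all collagen regions, against 8.60% over all coding genes.

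Regions of DMSO alone were short and AT-rich, over collagen genes and elsewhere. Their median width was 444 bp over collagen genes and 377 bp over all coding genes, and the median GC content of the 500 bp at their centre 38.3% and 39.6%, while regions in all lists had 46.9% and 50.2%. The DMSO regions were therefore also divided by the GC content of the 300 bp at their centre, a division added after the data were seen. Of the 135 DMSO regions over collagen genes, 39 had no IFN-γ region (28.9%, 21.4 to 37.3), against 14.7% over all coding genes, and 64 had no curcuphenol region (47.4%, 38.8 to 56.2), against 29.3%. At or below 40% GC, 20 of 35 had no IFN-γ region (57.1%, 39.4 to 73.7), against 41.0%. Above 40% GC, 19 of 100 had none (19.0%, 11.8 to 28.1), against 8.82%, and 42 of 100 had no curcuphenol region (42.0%, 32.2 to 52.3), against 24.2%. At or below 40% GC, 22 of 35 had no curcuphenol region (62.9%, 44.9 to 78.5), against 52.2%. The share missing was thus higher over collagen genes within both GC classes for both treatments, with intervals that span the background at or below 40% GC. Regions of the same gene are not independent of each other, and 19 of the DMSO regions lie over Col4a2. All come from 1 library per treatment. The intervals may therefore be too narrow and decide nothing in either GC class. The part of GC content in these shares was not tested.

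Region width and the Col3a1 locus moved these shares too. Of DMSO regions at least 500 bp wide, 14 of 96 had no IFN-γ region (14.6%, 8.21 to 23.3), against 6.15%, and 30 of 96 no curcuphenol region (31.3%, 22.2 to 41.5), against 18.2%. Without Col3a1 and Col5a2, 29 of 123 DMSO regions had no IFN-γ region (23.6%, 16.4 to 32.1) and 54 of 123 no curcuphenol region (43.9%, 35.0 to 53.1). For the fibrillar genes the share missing with IFN-γ was 14 of 29 (48.3%) with these genes and 4 of 17 (23.5%, 6.81 to 49.9) without them. In the other direction, 27 of 130 IFN-γ regions over collagen genes had no DMSO region (20.8%, 14.2 to 28.8), against 25.8% over all coding genes, and 36 of 115 curcuphenol regions (31.3%, 23.0 to 40.6), against 28.8%.

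Genes that modify, crosslink, degrade or bind collagen were read from fixed lists. Of 18 genes of collagen synthesis in the endoplasmic reticulum, 15 had a promoter region in the DMSO list and 14 with each treatment. Over all genes the shares were 50.1%, 49.0% and 51.1% with DMSO, curcuphenol and IFN-γ. Of the 16 compared, 3 had at least 1.5-fold more and 4 fewer covered bp with curcuphenol, and 4 more and 2 fewer with IFN-γ. Of all genes compared, 21.9% had more and 20.8% fewer with curcuphenol, and 21.2% more and 8.91% fewer with IFN-γ. The counts of the synthesis genes lie near these shares. Serpinh1, the collagen chaperone HSP47, had 3981, 4057 and 4160 bp with DMSO, curcuphenol and IFN-γ, and the prolyl hydroxylase subunit P4ha1 had 5582, 4786 and 6301 bp. A promoter region in all 3 lists was found for 14 of these 18 genes and for 8 of the 44 collagen genes. The share of all genes was not computed for this count.

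The counts for the processing and crosslinking enzymes differed between the treatments, as a description without a test. Of 13 genes, 9 had a promoter region in each list. Of the 11 compared, 8 had at least 1.5-fold fewer and 1 more bp with curcuphenol, while 0 had fewer and 3 more with IFN-γ. Of all genes, 20.8% had fewer and 21.9% more with curcuphenol, and 8.91% fewer and 21.2% more with IFN-γ. The IFN-γ counts of this list lie near those shares. Loxl2, a lysyl oxidase that crosslinks collagen, had 21190 bp with DMSO, 7531 bp under curcuphenol and 23110 bp under IFN-γ. Loxl1 of the same family had 17363, 10108 and 18719 bp, and Bmp1, which removes the C-propeptide of fibrillar procollagens, had 9874, 3766 and 8782 bp. All of these were shortest with curcuphenol, like Col1a1, Col1a2 and Col12a1.

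Of 7 degradation genes, 4 had a promoter region in the DMSO list and 5 with each treatment. With curcuphenol 2 of 5 compared had fewer and 1 more, and with IFN-γ 0 fewer and 1 more. Mmp2, a gelatinase, had 17858, 8485 and 18491 bp, and Mmp14, the membrane-bound collagenase that activates it, had 9239, 6448 and 11447 bp. Of 9 receptors, 4 had a promoter region in the DMSO list and 3 with each treatment, with 3 fewer and 1 more of 5 compared with curcuphenol and 0 fewer and 2 more of 7 with IFN-γ. Ddr2, a receptor kinase for fibrillar collagen, had 33653, 25283 and 39355 bp, and the integrin subunit Itgb1 had 11221, 5148 and 9086 bp. The shares of all genes to set beside the degradation and receptor counts are those given with the synthesis genes. Counts from so few genes were not tested. The genes of these lists named here were chosen for their known roles after their values were seen.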

How the data were processed

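H3K27ac and input ChIPseq libraries of A9 cells (1 each per treatment, 6 in all) were aligned by the authors to mm10 with BWA mem and regions were called with MACS2 (FDR cutoff 0.01, input as control). The submitters' processing notes give BWA 0.7.17 and MACS2 2.1.2, and the methods of the study an earlier BWA. The deposited values are positions and names of regions, with no score or count. Depth, duplicate filters and mapping filters are not given in the sources used here. All columns were mapped to a treatment.

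Genes were the curated coding transcripts of the GRCm38.p6 RefSeq annotation. Regions were assigned at an overlap of 1 bp and merged across lists where they overlapped (Python 3.11.15, pandas 2.3.3, numpy 2.4.6). The overlap functions were checked against a base-by-base count over 2000 windows on simulated data, of which 0 differed. A gene was compared where either list had a region, and called at 1.5-fold. Shares have exact Clopper-Pearson intervals (scipy 1.17.1), which cover counting error only and treat regions as independent.

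The collagen genes and the lists were chosen with earlier results of these data known. Genes were named by rule: those with a promoter region in any list, the 8 with most covered bp with DMSO, the 5 largest rises and 5 largest falls in covered bp with each treatment, those without any region, and those sharing a promoter or region with another collagen gene. The other collagen genes are named so that every gene is accounted for.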

Additional observations from a re-analysis of the deposited data

How the results depend on the processing

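Of 92 recomputed values under other settings, 74 stayed within the limits set (1.5 times for counts, the exact binomial interval for medians). The limits for medians were too wide to be left easily. For the basement membrane genes with DMSO the interval was 0 to 40062 bp, the full range of the class. The medians as percent of the gene window have another unit and were counted as outside without a comparison. The 74 of 92 is therefore no measure of how stable the results are. The number of collagen genes with a promoter region went from 11, 9 and 11 (DMSO, curcuphenol, IFN-γ) to 4, 4 and 3 when the centre of the region had to lie inside the window, since broad regions are centred downstream of it. The shares of all genes under that rule were not computed. At a fold of 2, genes with fewer bp went from 15 to 9 with curcuphenol and from 10 to 6 with IFN-γ. Genes with more bp with IFN-γ went from 3 to 1 with regions of at least 500 bp, and to 1 with a difference of at least 500 bp. Merged regions in 1 list went from 89 of 184 to 167 of 252 at a reciprocal overlap of 50%, and to 49 of 130 with regions of at least 500 bp. As percent of the gene window, the class medians with DMSO, curcuphenol and IFN-γ were 3.67, 0 and 1.21% (fibrillar), 2.76, 2.18 and 1.72% (basement membrane) and 1.17, 0.973 and 1.37% (other), so that for the others the order of DMSO and curcuphenol, and of DMSO and IFN-γ, differs from that of the medians in bp. No paired analysis was possible because each treatment has 1 H3K27ac library. Leaving out a replicate was not possible for the same reason, and 1 library per treatment and unknown depth limit every comparison.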

Other observations

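Regions outside the body and 1 kb upstream of a collagen gene, with the TSS of that gene as their nearest, were counted separately. Some of them lie in another collagen gene and are already part of the covered lengths above. The 1231 bp DMSO region in Col6a5, for example, has the TSS of Col6a6 as its nearest. There were 111 such outside regions with DMSO, 80 under curcuphenol and 102 under IFN-γ, covering 175155, 100584 and 138635 bp. Those nearest to Col3a1 covered 28411 bp with DMSO, 8489 bp under curcuphenol and 12545 bp under IFN-γ, and those nearest to Col5a2 9143, 2859 and 2065 bp. Those nearest to Col1a2, whose own body held 1 merged region, covered 16771, 5290 and 14858 bp. Those nearest to Col5a1 covered 20813, 14567 and 21602 bp. For Col3a1 and Col5a2 the outside regions were thus longer with DMSO than with either treatment, and for Col1a2 and Col5a1 they were shortest with curcuphenol. Col6a2 and Col11a1, without any region over their bodies, had outside regions of 4523 and 4438 bp with DMSO, 1048 and 402 bp with curcuphenol and 4202 and 432 bp with IFN-γ. The nearest TSS is a distance and shows no regulatory link, and for Col4a1 and Col4a2, whose start sites are 21 bp apart, the assignment has no meaning.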
